A study of Homo sapiens with 6 samples.

Results

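The insulin-like growth factor (IGF) binding proteins and the receptors of IGF and insulin are described here in SW480, a human cell line from a colon adenocarcinoma. The 10 members are the 7 genes named IGFBP1 to IGFBP7 and the receptor genes IGF1R, IGF2R and INSR, found by symbol among the 20289 genes of the deposited table. The set was selected on the rise of IGFBP7 in the comparison described below, and the other 9 genes were taken by family or receptor name. The value of IGFBP7 is therefore given as a description without a test. RNA was sequenced from 3 libraries of MUCP1-FLAG cells, labelled as overexpressing the microprotein MUCP1 with a FLAG tag, and from 3 libraries of LV-NC cells, the control, whose genotype is labelled WT. The question was how raised MUCP1 alters transcript levels. Fetal bovine serum was present in the L-15 medium of both groups, and the labels give no passage, clone or batch. The libraries are labelled biological replicates, so p-values set the difference between groups against the spread between these libraries. Whether libraries of a group came from separately made cells is not labelled. A difference between the cell populations therefore cannot be told apart from raised MUCP1.

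IGF1 and IGF2 are small secreted growth factors. Outside the cell they are held by IGFBP1 to IGFBP6, which bind them with high affinity, lengthen their life and regulate their access to receptors. IGFBP7 shares the cysteine-rich IGF-binding domain of the family but binds IGF weakly, and it is known in colorectal cancer as a secreted protein with growth-restraining activity that is often silenced by promoter methylation. IGF1R and INSR are receptor tyrosine kinases that signal to the IRS adaptors, PI3-kinase and AKT. IGF2R, the cation-independent mannose 6-phosphate receptor, clears IGF2 and carries lysosomal enzymes, and it does not signal as a kinase.

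Total counts ran from 17333329 to 23282604 in MUCP1-FLAG libraries and from 18867369 to 21534908 in LV-NC libraries. No gene of the table carries the name MUCP1, so its level was not analysed here. Of the epithelial markers EPCAM, KRT8, KRT18, KRT19, CDH1, VIL1, CDX2 and LGALS4, the keratin KRT8 averaged 3687 CPM in MUCP1-FLAG and 3615 CPM in LV-NC, and LGALS4 was at 0 counts in every library. CDH1 (log2 fold change −1.06 ± 0.08), EPCAM (−0.33 ± 0.05) and VIL1 (−0.40 ± 0.10) were lower in MUCP1-FLAG cells and KRT19 (0.17 ± 0.05) was higher, at an edgeR adjusted p under 0.05. KRT8 (0.03 ± 0.05), KRT18 (0.12 ± 0.05) and CDX2 (−0.03 ± 0.09) were not called. The median over the 7 tested markers was −0.03. Of all tested genes 8.35% were called higher and 7.71% lower. The KRT19 call was kept only without LV-NC replicate 1 among the fits that left out a library (adjusted p 0.0533 to 0.189 in the other 5). With limma on log2(FPKM + 1) neither VIL1 (adjusted p 0.304) nor KRT19 (0.156) was called, and the FPKM of VIL1 overlapped between groups. Fibroblast, endothelial, pericyte and leukocyte markers are given beside IGFBP7 below. In bulk RNA, fewer cells of a type and less RNA per cell cannot be told apart.

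The promoters of 3 members called different between the groups are shown. IGFBP3 and IGFBP6 were lower in MUCP1-FLAG cells and IGF1R was higher. The IGF1R call was lost without MUCP1-FLAG replicate 1 (edgeR adjusted p 0.0807) or LV-NC replicate 2 (0.0702). With limma on log2(FPKM + 1) it was lost as well (0.494). IGFBP2, also called higher, is not printed. Each sequence runs from 250 bases before to 50 bases after the annotated gene start, on the gene's strand, in RefSeq on GRCh38.p14. For IGFBP3 and IGFBP6 that start lies inside the gene span of GENCODE 29, which reaches farther upstream, and for IGF1R the starts coincide. Of the 10 members 8 had an entry, and IGFBP1 and IGFBP7 had none. Capitals mark GC boxes, GGGCGG on either strand, the element bound by SP1-type factors.
IGFBP3, chr7:45921223-45921522, minus strand: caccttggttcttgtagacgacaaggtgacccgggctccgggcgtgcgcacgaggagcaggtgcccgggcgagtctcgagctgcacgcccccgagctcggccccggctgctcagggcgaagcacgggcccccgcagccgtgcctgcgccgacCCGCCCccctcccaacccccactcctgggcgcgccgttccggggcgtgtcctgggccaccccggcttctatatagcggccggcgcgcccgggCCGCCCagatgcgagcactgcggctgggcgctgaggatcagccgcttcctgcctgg
IGFBP6, chr12:53097417-53097716, plus strand: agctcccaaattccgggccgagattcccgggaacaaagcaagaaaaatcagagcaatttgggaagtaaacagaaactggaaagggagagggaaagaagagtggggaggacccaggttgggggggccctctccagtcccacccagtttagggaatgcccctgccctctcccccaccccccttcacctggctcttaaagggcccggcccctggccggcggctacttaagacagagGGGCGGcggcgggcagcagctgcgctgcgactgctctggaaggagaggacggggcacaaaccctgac
IGF1R, chr15:98648289-98648588, plus strand: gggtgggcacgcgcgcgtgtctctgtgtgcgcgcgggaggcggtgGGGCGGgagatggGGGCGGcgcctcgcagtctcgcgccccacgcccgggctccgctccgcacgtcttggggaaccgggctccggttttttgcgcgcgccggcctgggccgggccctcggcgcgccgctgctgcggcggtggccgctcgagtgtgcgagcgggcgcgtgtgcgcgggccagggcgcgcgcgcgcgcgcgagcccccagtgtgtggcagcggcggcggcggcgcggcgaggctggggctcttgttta

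The first base of each GC box lay at positions −98 and −6 in IGFBP3, at −17 in IGFBP6 and at −205 and −192 in IGF1R, counted from the annotated start. The element was present in 8 of the 10 promoter entries of the members, which include 3 entries for IGFBP2, and in 45.0% of the 35116 promoters of that length. CpG dinucleotides numbered 36 in IGFBP3, 12 in IGFBP6 and 55 in IGF1R, against a median of 14 over all promoters. The TATA box, the AP-1 site and a sterol regulatory element were searched on both strands as well, and no match of these overlapped a GC box in the members. The TATA box, spelled TATAAA, was present in the IGFBP4 entry, at −29, and in 11.5% of all promoters. The AP-1 site, spelled TGANTCA, was in none of the members' entries and in 7.71% of all promoters. The sterol element, spelled TCACNCCAC, was in none of the members' entries and in 1.13% of all promoters. These matches describe the letters of the windows and say nothing about binding.

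Levels are given in CPM, counts scaled to library size with edgeR's TMM factors. Differences were tested with edgeR's quasi-likelihood test on the deposited counts over 12920 genes that passed a low-count filter, with Benjamini-Hochberg adjustment over all of them, and called at an adjusted p under 0.05. Log2 fold changes are MUCP1-FLAG over LV-NC, and ± gives their standard error. Among the members taken by name, 2 were called higher in MUCP1-FLAG cells, IGFBP2 and IGF1R, and 2 were called lower, IGFBP3 and IGFBP6. Of all tested genes 8.35% were called higher and 7.71% lower. IGFBP4, IGF2R, INSR and IGFBP1 were not called. IGFBP5 did not pass the filter. The median log2 fold change of all tested genes was −0.0042.

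**Figure D1:**
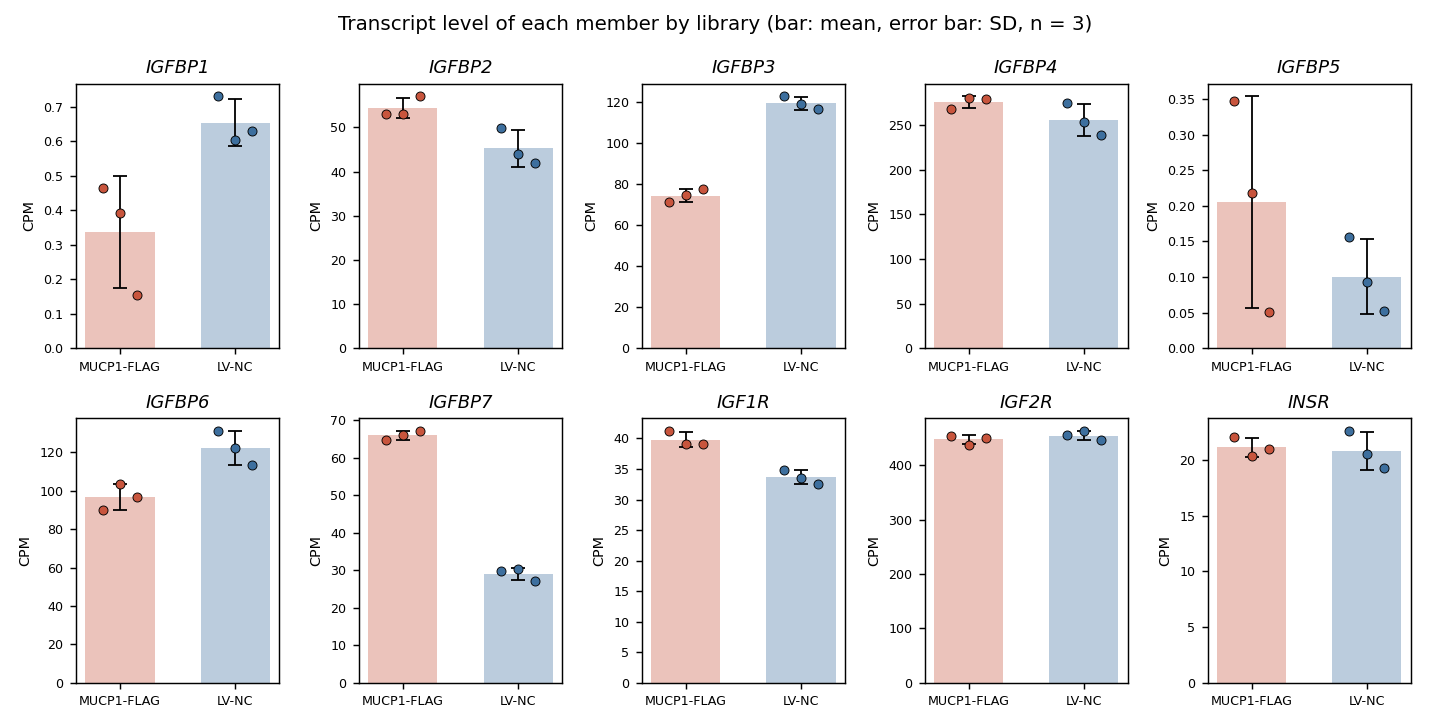
CPM of each of the 10 members (vertical axes, each from 0) in the 3 MUCP1-FLAG and 3 LV-NC libraries; points are libraries, bars means and error bars SD. IGFBP7 lies between 64.6 and 67.0 CPM in MUCP1-FLAG and between 27.1 and 30.2 CPM in LV-NC, and IGFBP3 is separated in the opposite direction.

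IGFBP7 (ENSG00000163453, chromosome 4 at 57030773 to 57110385, minus strand, GENCODE 29 on GRCh38) had 64.6, 66.1 and 67.0 CPM in MUCP1-FLAG cells, against 29.8, 30.2 and 27.1 CPM in LV-NC cells. The libraries of each group lay close together and the groups were far apart. Its mean was 2.27-fold higher in MUCP1-FLAG, a log2 fold change of 1.18 ± 0.06. The deposited FPKM, which scale counts by length and library size, were 45.1, 45.9 and 47.0 in MUCP1-FLAG and 20.95, 21.25 and 19.23 in LV-NC. The gene overlaps POLR2B, an RNA polymerase II subunit gene on the opposite strand, at 270 of 1930 exonic bases, and whether counting used strand is not known here, so reads of that stretch cannot be assigned to 1 of the 2 genes. The log2 fold change of POLR2B was 0.08 ± 0.05 (adjusted p 0.305, edgeR).

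IGFBP7 is also abundant in fibroblasts and vessels, so markers of those cells were listed. Of 8 fibroblast markers COL1A2, COL3A1, DCN and FAP were at 0 counts in all 6 libraries, and the list summed to 0.754 to 1.09 CPM in MUCP1-FLAG and 1.02 to 1.30 CPM in LV-NC. The fibroblast markers with the highest levels were PDGFRB and COL1A1, each under 1 CPM on average. Of 7 endothelial markers PECAM1, CDH5, KDR and EMCN were at 0, and the sum was 2.87 to 4.99 CPM in MUCP1-FLAG and 3.15 to 3.66 CPM in LV-NC, most of it VWF, followed by ESAM. The 6 pericyte and smooth muscle markers summed to 6.56 to 8.23 CPM in MUCP1-FLAG and 7.91 to 9.59 CPM in LV-NC, with CSPG4 lower (−0.80 ± 0.22, edgeR adjusted p 0.0162). The CSPG4 call was lost without MUCP1-FLAG replicate 2 (0.0757) or LV-NC replicate 2 (0.135), and with DESeq2 (0.0624) and limma on log2(FPKM + 1) (0.182). Of 6 leukocyte markers PTPRC was at 0. Their sum was 7.79 to 10.1 CPM in MUCP1-FLAG and 13.4 to 14.0 CPM in LV-NC, and the difference lay in CD68 (−0.62 ± 0.11, edgeR adjusted p 0.000554), a lysosomal membrane protein. All 6 libraries are labelled SW480, a cell line, so these markers describe levels in that culture. Whether other cells had any part in the IGFBP7 value was not tested beyond these levels.

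IGFBP3, the main carrier of IGFs in serum and a restraint on growth in many cell types, had 71.1, 74.4 and 77.3 CPM in MUCP1-FLAG cells, against 123, 119 and 117 CPM in LV-NC cells. Every MUCP1-FLAG library lay below every LV-NC library. The level was 1.61-fold lower in MUCP1-FLAG (log2 fold change −0.68 ± 0.05, edgeR adjusted p 9.21e-09), and the call held in each alternative run. IGFBP3 (ENSG00000146674) lies on chromosome 7 at 45912245 to 45921874, 18576 bases from IGFBP1 with no protein-coding gene between them, the 2 genes facing each other tail to tail.

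IGFBP1, a binding protein of liver and decidua that insulin represses, was near the limit of detection, with 8, 9 and 3 counts in MUCP1-FLAG libraries and 14, 13 and 12 in LV-NC libraries. All 3 LV-NC libraries were above all 3 MUCP1-FLAG libraries, in CPM as in counts. It passed the filter, near 0.518 CPM, only through the LV-NC libraries, so a lower value in MUCP1-FLAG was built into its testing. Its log2 fold change was −0.95 ± 0.46 (edgeR adjusted p 0.170).

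IGFBP6, which prefers IGF2 over IGF1, had 89.7, 104 and 96.9 CPM in MUCP1-FLAG cells, against 131, 122 and 113 CPM in LV-NC cells. The spread within each group was wider than for IGFBP3 and the groups did not overlap. The log2 fold change was −0.34 ± 0.06 (edgeR adjusted p 0.000686), a level 1.26-fold lower in MUCP1-FLAG, and the call held in each alternative run.

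IGFBP2, often raised in the serum of patients with epithelial tumours, had 53.1, 53.2 and 57.1 CPM in MUCP1-FLAG cells, against 49.9, 43.9 and 41.9 CPM in LV-NC cells. The nearest libraries of the 2 groups were LV-NC replicate 1 and MUCP1-FLAG replicates 1 and 2, and the groups did not overlap. The gene was 1.20-fold higher in MUCP1-FLAG (log2 fold change 0.27 ± 0.07, edgeR adjusted p 0.00979). Without MUCP1-FLAG replicate 3 the adjusted p was 0.0812, and without LV-NC replicate 2 it was 0.0590.

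IGFBP5, the neighbour of IGFBP2 on chromosome 2 at a distance of 7668 bases, was barely detected, with 6, 5 and 1 counts in MUCP1-FLAG libraries and 3, 2 and 1 in LV-NC libraries. No fold is given for it. In both neighbouring pairs, IGFBP3 with IGFBP1 and IGFBP2 with IGFBP5, a readily detected gene thus lay beside one under 1 CPM in every library.

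IGFBP4, a binding protein that restrains IGF action and is cleaved by the protease PAPPA, was the most abundant binding protein by counts. It had 268, 280 and 279 CPM in MUCP1-FLAG cells and 275, 253 and 239 CPM in LV-NC cells, and the groups overlapped. The log2 fold change was 0.11 ± 0.05, with a 95% interval of 0.0043 to 0.22 (edgeR adjusted p 0.152). Without LV-NC replicate 1, the highest of its group, the adjusted p was 0.0132.

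**Figure D2:**
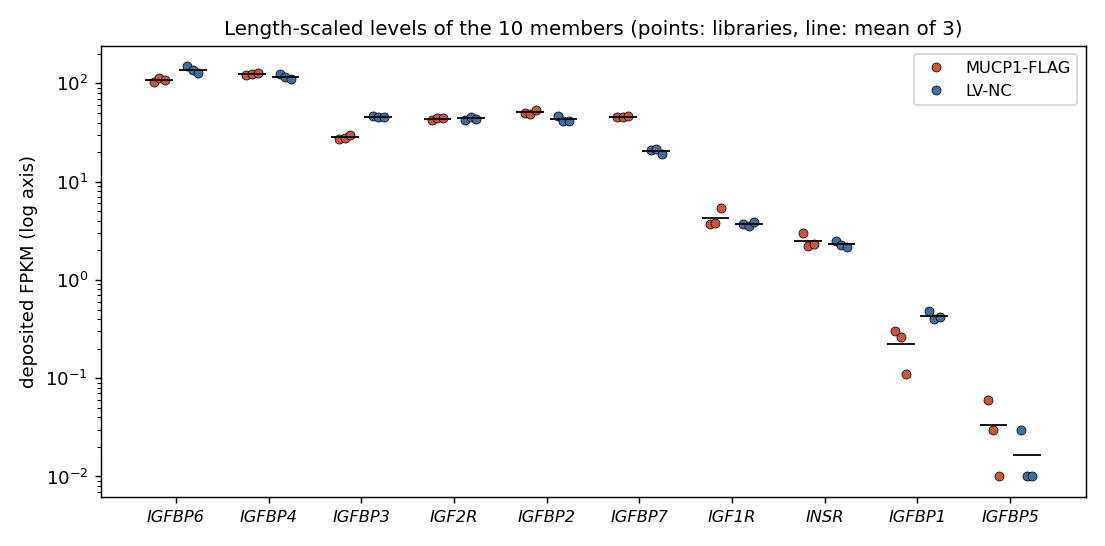
Deposited FPKM (log axis) of the 10 members, ordered by their mean in LV-NC; points are libraries of MUCP1-FLAG and LV-NC, lines the means of 3 libraries. IGFBP6 and IGFBP4 stand above 100 FPKM, IGF1R and INSR lie under 6 FPKM, and IGFBP1 and IGFBP5 under 1 FPKM.

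Since levels of different genes can be compared only per length, the order of the members was taken from the deposited FPKM. In MUCP1-FLAG cells it ran from IGFBP4 (124 ± 2.86 FPKM, SD, n = 3) through IGFBP6 (108 ± 4.45), IGFBP2 (50.7 ± 2.32), IGFBP7 (46.0 ± 0.956), IGF2R (43.7 ± 0.942), IGFBP3 (28.3 ± 1.29), IGF1R (4.28 ± 0.919), INSR (2.51 ± 0.427) and IGFBP1 (0.223 ± 0.10) to IGFBP5 (0.0333 ± 0.0252). Each neighbour in that order was separated from the next in all 3 libraries. IGFBP7 and IGF2R lay close, with a lowest value of 45.1 FPKM for IGFBP7 and a highest of 44.5 FPKM for IGF2R. The length implied by count and FPKM of IGF2R ran from 9.82 to 10.6 kb in MUCP1-FLAG, so the order of these genes is uncertain. In LV-NC cells IGFBP6 (137 ± 10.6 FPKM) came before IGFBP4 (117 ± 7.79). Next came IGFBP3 (46.0 ± 0.974), IGF2R (44.0 ± 1.72) and IGFBP2 (43.1 ± 3.10), whose libraries overlapped with their neighbours', then IGFBP7 (20.5 ± 1.09), IGF1R (3.71 ± 0.185), INSR (2.30 ± 0.172), IGFBP1 (0.433 ± 0.0416) and IGFBP5 (0.0167 ± 0.0115). IGFBP3 stood at rank 6 in MUCP1-FLAG cells and at rank 3 in LV-NC cells, and IGFBP7 at rank 4 in MUCP1-FLAG cells and at rank 6 in LV-NC cells. The ratio of IGFBP7 to IGFBP3 in FPKM was 1.67, 1.63 and 1.59 in MUCP1-FLAG and 0.445, 0.466 and 0.425 in LV-NC.

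**Figure D3:**
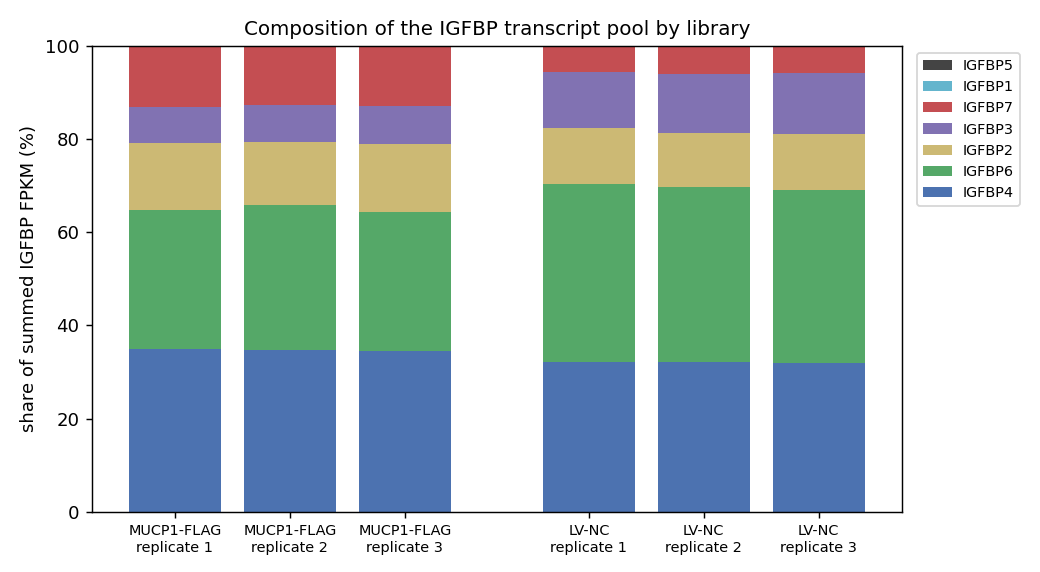
Share of each IGFBP gene in the summed FPKM of the 7 genes (vertical axis, percent), 1 bar per library, MUCP1-FLAG replicates and then LV-NC replicates. The IGFBP7 segment takes 12.7 to 13.0% in MUCP1-FLAG and 5.39 to 5.92% in LV-NC; IGFBP1 and IGFBP5 are too small to see.

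Summed over the 7 binding proteins, FPKM came to 347, 361 and 366 in MUCP1-FLAG and to 389, 359 and 344 in LV-NC, with overlapping libraries. Within that sum the shares differed. IGFBP7 made up 12.9 ± 0.155% in MUCP1-FLAG and 5.63 ± 0.269% in LV-NC (SD, n = 3 per group). IGFBP2 made up 14.2 ± 0.494% in MUCP1-FLAG and 11.8 ± 0.318% in LV-NC, and IGFBP4 34.7 ± 0.174% in MUCP1-FLAG and 32.0 ± 0.126% in LV-NC. The shares of the 2 lower genes went the other way. IGFBP3 made up 7.90 ± 0.175% in MUCP1-FLAG and 12.7 ± 0.534% in LV-NC, and IGFBP6 30.3 ± 0.716% in MUCP1-FLAG and 37.7 ± 0.538% in LV-NC. Shares of a sum are tied to each other, and these are descriptions of transcript levels without a test.

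IGF1R (ENSG00000140443), the signalling receptor of both IGFs, had 41.2, 39.1 and 39.1 CPM in MUCP1-FLAG cells, against 34.9, 33.5 and 32.6 CPM in LV-NC cells. The groups did not overlap in CPM. The gene was 1.18-fold higher in MUCP1-FLAG (log2 fold change 0.24 ± 0.07, edgeR adjusted p 0.0158). Without MUCP1-FLAG replicate 1 the adjusted p was 0.0807 and without LV-NC replicate 2 it was 0.0702. The FPKM of IGF1R were 3.70, 3.80 and 5.34 in MUCP1-FLAG and 3.70, 3.53 and 3.90 in LV-NC, which overlap. With limma on log2(FPKM + 1) the adjusted p was 0.494. For MUCP1-FLAG replicate 3 the count and FPKM together imply a length of 7.31 kb, where the other 5 libraries imply 8.47 to 11.1 kb, so counts and FPKM of this gene do not give the same reading.

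INSR, the insulin receptor, had 22.0, 20.4 and 20.9 CPM in MUCP1-FLAG cells and 22.6, 20.5 and 19.3 CPM in LV-NC cells. The values overlapped (log2 fold change 0.02 ± 0.08, 95% interval −0.15 to 0.19, edgeR adjusted p 0.905). The count ratio of IGF1R to INSR, which is not scaled for length, was 1.87, 1.92 and 1.87 in MUCP1-FLAG and 1.55, 1.63 and 1.69 in LV-NC. In FPKM that ratio ran from 1.23 to 2.31 in MUCP1-FLAG and from 1.49 to 1.82 in LV-NC, with overlap. The lowest of these ratios came from MUCP1-FLAG replicate 1, where the count and FPKM of INSR imply a length of 7.31 kb against 9.05 to 9.13 kb in the other 5 libraries. IGF2R, the highest member by counts, had 453, 438 and 451 CPM in MUCP1-FLAG cells and 456, 462 and 446 CPM in LV-NC cells. These overlapped, and the 95% interval of its log2 fold change, −0.11 to 0.07, lies within small changes in either direction (edgeR adjusted p 0.765).

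**Figure D4:**
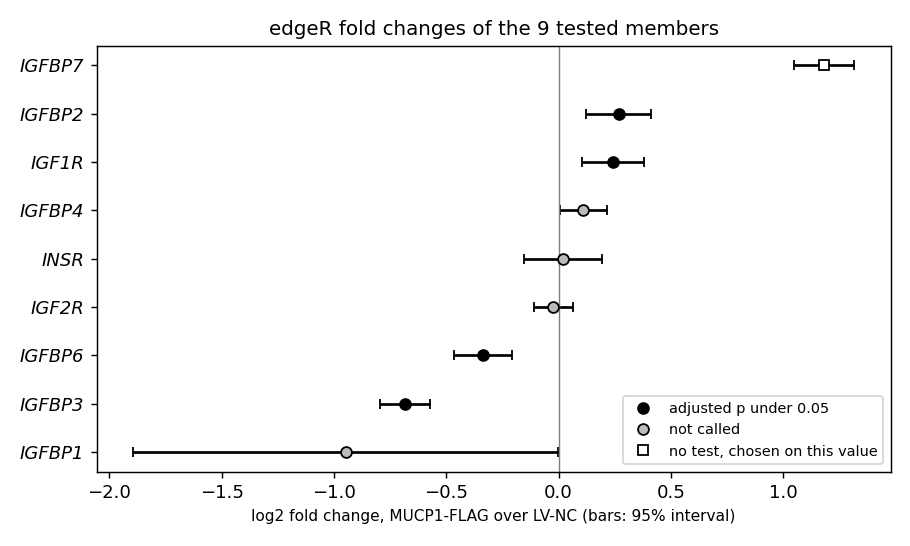
Log2 fold change of MUCP1-FLAG over LV-NC (horizontal axis) with 95% intervals for the 9 members that passed the filter. Black points were called at an edgeR adjusted p under 0.05, and grey points were not. The open square is IGFBP7, which chose the set, so its interval is a description and no test. IGFBP3 and IGFBP6 lie left of 0, and IGFBP2 and IGF1R right of it. IGFBP1, which passed the filter only through LV-NC, has the widest interval.

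In the authors' deposited table the log2 fold change, a ratio of mean FPKM, was 1.17 for IGFBP7, −0.70 for IGFBP3, −0.34 for IGFBP6, 0.23 for IGFBP2 and 0.21 for IGF1R. The adjusted p in the authors' deposited table was 1.73e-27 for IGFBP3, 4.43e-05 for IGFBP6, 0.0151 for IGFBP2 and 0.0400 for IGF1R. DESeq2 on the counts gave nearby adjusted p-values for these genes, 1.37e-27, 3.50e-05, 0.0120 and 0.0316 in that order. Whether the deposited p-values test the FPKM ratios is not stated. For IGF1R limma on log2(FPKM + 1) gave an adjusted p of 0.494. IGFBP4, IGF2R, INSR, IGFBP1 and IGFBP5 had adjusted p-values of 0.235 to 0.951 in the authors' deposited table. Among the members taken by name, CPM values did not overlap between groups for IGFBP2, IGFBP3, IGFBP6 and IGF1R and overlapped for IGFBP4, IGF2R and INSR. Such separation was found for 33.1% of all tested genes. IGFBP7, which chose the set, and IGFBP1, which passed the filter only through LV-NC, are not counted here, and nothing is read from the share.

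Of the ligands, IGF2 was the only one with more than a few counts. IGF2 had 2.84, 1.52 and 2.41 CPM in MUCP1-FLAG cells, against 5.94, 3.89 and 4.19 CPM in LV-NC cells. The counts behind them were 35 to 49 in MUCP1-FLAG and 80 to 114 in LV-NC, and the groups did not overlap. Its log2 fold change was −1.07 ± 0.23 (edgeR adjusted p 0.00256), and the call held in each alternative run. The count and FPKM together imply a length of 3.96 to 4.87 kb in MUCP1-FLAG and 3.06 to 3.82 kb in LV-NC. Mean FPKM were 0.49 in MUCP1-FLAG and 1.37 in LV-NC, so counts and FPKM do not give the same size of difference. On its strand IGF2 overlaps the read-through gene INS-IGF2 and a second record also named IGF2, both at 0 in all libraries. It overlaps an antisense gene as well. How reads shared between these records were counted is not known here, so the zeros do not settle the level of IGF2. IGF1 had 7, 1 and 2 counts in MUCP1-FLAG and 2, 0 and 1 in LV-NC, INS averaged under 0.1 CPM in both groups, and IGFALS, the subunit that joins IGFBP3 and IGF in a ternary complex, was at 0 throughout.

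Among 6 tested genes of proteases that cleave IGFBPs and their inhibitors 2 were higher and none lower, with a list median log2 fold change of 0.09, where 8.35% of all tested genes were higher, 7.71% lower and the median was −0.0042. ADAM9, a membrane protease, rose by 0.30 ± 0.05 (edgeR adjusted p 0.0006) and STC2, an inhibitor of the IGFBP4 protease PAPPA, by 0.24 ± 0.05 (0.00495). The adjusted p of STC2 was 0.0828 with limma on log2(FPKM + 1). Of 8 tested genes outside the family that encode an IGFBP-type domain, CRIM1, a membrane protein that binds BMPs, was called, at 118 ± 2.58 CPM in MUCP1-FLAG and 91.6 ± 3.18 CPM in LV-NC (0.37 ± 0.05, edgeR adjusted p 3.20e-05, n = 3 per group). This list's median was 0.28. Of 4 tested cell-surface partners of IGFBPs, the endocytic receptor LRP1 was lower (−0.28 ± 0.09, edgeR adjusted p 0.0338). The LRP1 call was lost with DESeq2 (adjusted p 0.0753) and without MUCP1-FLAG replicate 2 (0.250), LV-NC replicate 1 (0.0656) or LV-NC replicate 2 (0.0673). CD93, which binds IGFBP7 on endothelium, was at 0 counts.

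The genes downstream of the receptors were read against the same shares over all tested genes, 8.35% higher and 7.71% lower, with no test of a difference. Of 21 tested adaptors and kinases 1 was lower and none higher, with a median of −0.02: the adaptor IRS2 (−0.18 ± 0.06, edgeR adjusted p 0.0403). The IRS2 call survived the removal of LV-NC replicate 3 but of no other library (adjusted p 0.0528 to 0.183) and was lost with DESeq2 (0.0743). With the replicate number as a block it had 0.0605. Of 13 tested inhibitors of receptor signalling the phosphatase PTPN1 was higher (0.17 ± 0.05, edgeR adjusted p 0.0145), with a list median of −0.02. Its adjusted p was 0.0555 without MUCP1-FLAG replicate 1, 0.0952 without MUCP1-FLAG replicate 2 and 0.0553 without LV-NC replicate 2.

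Of 10 tested FOXO factors and FOXO-bound genes 2 were lower and none higher, with a median of −0.14. TXNIP, an arrestin that limits glucose uptake, had 12.5 ± 1.80 CPM in MUCP1-FLAG and 23.5 ± 0.814 CPM in LV-NC (−0.92 ± 0.10, edgeR adjusted p 6.96e-07, n = 3 per group). The zinc-finger factor KLF6 had −0.15 ± 0.05 (0.0319). The KLF6 call was lost on removing LV-NC replicate 2 (0.106) and each of the MUCP1-FLAG libraries in turn (0.0928 to 0.108), and its adjusted p with the replicate block was 0.0548. Among 12 tested sorting partners of IGF2R in the mannose 6-phosphate route the sorting receptor SORT1 was higher (0.27 ± 0.05, edgeR adjusted p 0.000885) and GNPTAB, which makes the mannose 6-phosphate tag, lower (−0.22 ± 0.07, 0.0399), with a median of −0.0032. The GNPTAB call was lost with DESeq2 (0.0852), with the replicate block (0.0519) and on removing each library in turn except LV-NC replicate 1 (0.0763 to 0.126). None of 3 IGF2 mRNA-binding proteins was called, among them IGF2BP2 (−0.06 ± 0.05) and IGF2BP1 (0.02 ± 0.05), nor any of 4 tested receptor-processing and partner genes, among them EGFR (−0.01 ± 0.05) and the protease FURIN (−0.08 ± 0.06). Among the genes of these pathway lists, the calls of LRP1, IRS2, PTPN1, KLF6, GNPTAB and STC2 were not made with limma on FPKM.

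**Figure D5:**
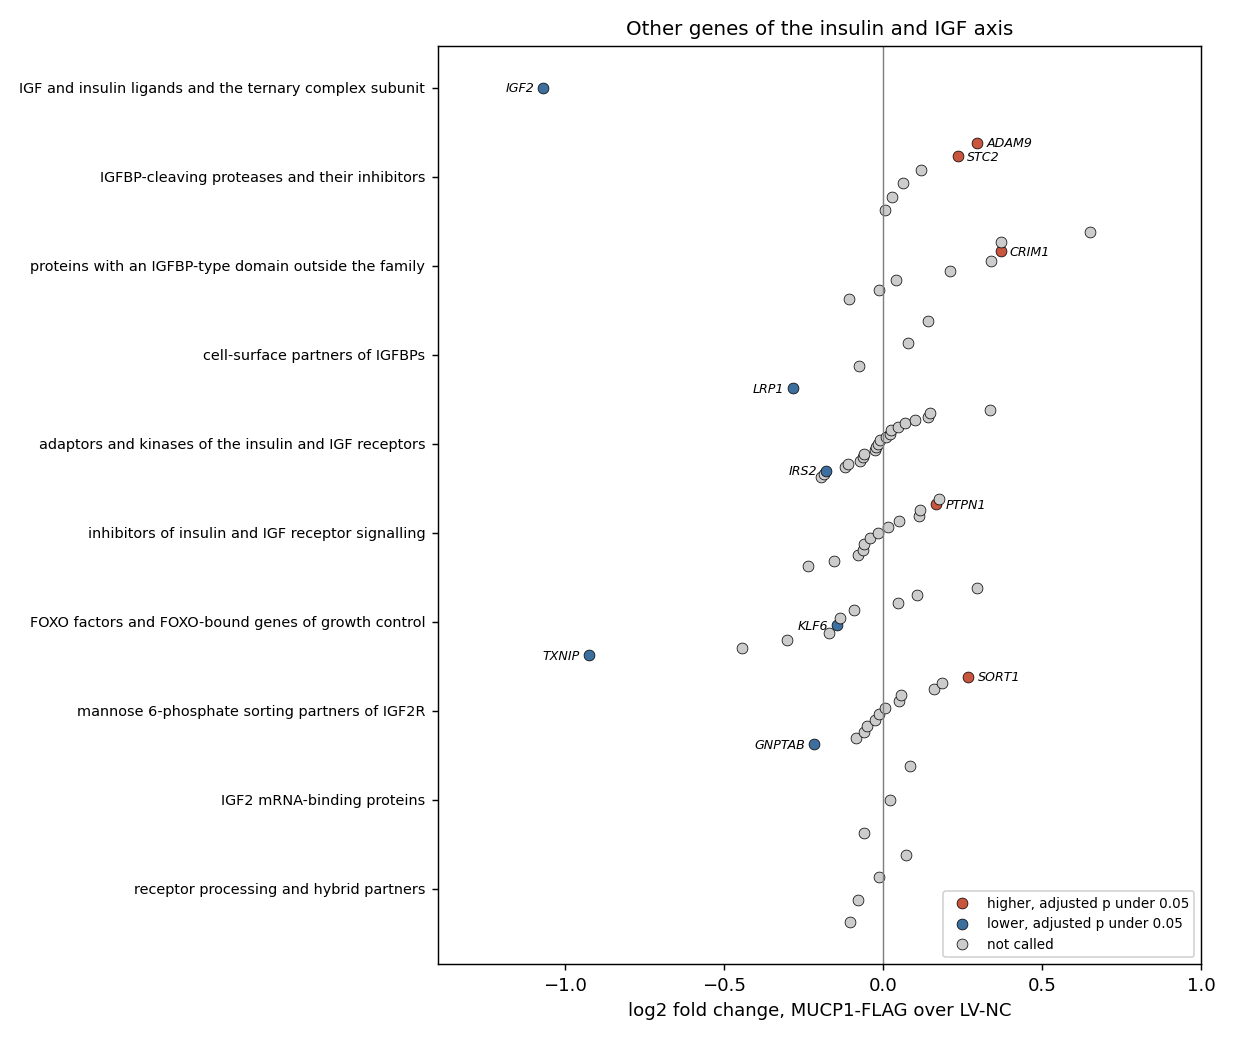
Log2 fold change of MUCP1-FLAG over LV-NC (horizontal axis) of each tested gene of 10 lists of the insulin and IGF axis (rows); coloured points were called at an edgeR adjusted p under 0.05, grey points were not. IGF2 and TXNIP lie farthest to the left, and most adaptors, kinases and inhibitors lie within 0.2 of 0.

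For IGFBP7 and each called member taken by name, the most similar genes were sought among 11539 genes with at least 2 CPM. They had the smallest Euclidean distance between profiles of log2(CPM + 0.5) over the 6 libraries, each centred on its LV-NC mean. Genes near in this measure have near log2 fold changes by construction. This likeness is a description and says nothing of shared control. For IGFBP7 they were the homeobox factor MSX1 (distance 0.22) and the sterol synthesis genes CYP51A1 (0.29) and DHCR7 (0.32), with log2 fold changes of 1.09, 1.16 and 1.22. For IGFBP3 they were the phosphodiesterase PDE9A (0.04), the immediate early factor EGR1 (0.12) and the cadherin CDH11 (0.15), with log2 fold changes of −0.70, −0.64 and −0.79. For IGFBP6 they were the keratin KRT81 (0.05), the peroxisomal reductase PECR (0.08) and POLR2J3 (0.08), of which KRT81 and POLR2J3 have near-identical copies and are uncertain. Those of IGFBP2 were GPR55, RTEL1 and VEGFB (0.07 each), and those of IGF1R were EPAS1, NELFA and NUP85 (0.04 each).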

How the data were processed

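RNA of 6 libraries was sequenced from an mRNA kit. The authors deposited whole-number counts per gene, and FPKM, which the authors scaled for length and library size. Their log2 fold change equals the ratio of the authors' mean FPKM, and how the authors obtained their deposited p-values is not stated. Per the submitters' processing notes, GRCh38, fastp, HISAT2, featureCounts and DESeq2 were used, with no role or version given.

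Counts were tested with edgeR 4.0.16 (R 4.3.3), with TMM scaling, filterByExpr at a minimum count of 10 and the robust quasi-likelihood test over 12920 genes, with Benjamini-Hochberg adjustment. The procedure was tested on simulated data with the same variability for every gene. That run does not show how often calls are false in these libraries. Alternatives were 2 other scalings, 2 other filters, DESeq2 1.42.0, limma 3.58.1 on FPKM, a replicate block and leaving out each library. Within groups, libraries differed by more than sampling noise (chi-square per degree of freedom 2.58 to 8.24).

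Members and lists were chosen with earlier results of these data known. Named genes were all members, the ligands and up to 4 called genes per list (otherwise the 2 most abundant). The 3 nearest profiles of IGFBP7 and of each called member were named as well. Positions are from GENCODE 29.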

Additional observations from a re-analysis of the deposited data

How the results depend on the processing

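IGFBP3, IGFBP6 and IGF2 were called lower in every alternative run, and IGFBP7 had a log2 fold change of 1.13 to 1.21 over them. INSR and IGF2R were called in none. IGFBP2 had a log2 fold change of 0.22 to 0.34 with 1 library left out, and was not called at 0.23 (without MUCP1-FLAG replicate 3) and 0.25 (without LV-NC replicate 2). IGF1R had 0.21 to 0.27 with 1 library left out, and 0.15 and 0.18 with limma on log2(FPKM + 1) and log2(FPKM + 0.1), where it was not called. IGFBP4 had 0.064 to 0.17, called without LV-NC replicate 1. IGFBP1 could not be tested with the filter of 1 CPM in 3 libraries. The number of members called higher, 3 with IGFBP7 included, was 1 to 4 with 1 library left out. The 1 came without LV-NC replicate 2 and was IGFBP7 itself, so no member taken by name was called higher there. Over all genes 1079 were called higher and 996 lower. The numbers were 517 and 553 with limma on log2(FPKM + 1), 510 and 543 on log2(FPKM + 0.1), and 639 to 1323 higher and 624 to 1213 lower with 1 library left out. The lowest of these, 639 and 624, came without MUCP1-FLAG replicate 3, and 671 were higher without LV-NC replicate 2. Same-numbered libraries of the 2 groups deviated together with correlations of 0.035, 0.050 and 0.0024, and MUCP1-FLAG replicate 3 did not correlate best with its own number, so the numbers were not taken as pairs. With the replicate block 1005 genes were higher and 954 lower, and the calls of the members taken by name did not change. The causes of these shifts were not tested. At the depth of these libraries IGFBP1 and IGFBP5 rest on at most 14 counts per library, and no difference was detectable for IGFBP5.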
